A study of Mus musculus with 13 samples.

Results

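The platelet-derived growth factor (PDGF) genes were measured in the mouse mammary stroma as the 7 genes with the symbols Pdgfra, Pdgfrb, Pdgfrl, Pdgfa, Pdgfb, Pdgfc and Pdgfd, out of 32285 genes in each deposited matrix. They were identified by symbol, and each was present in the matrices of all 13 libraries. The study asked how mammary fibroblasts differ between stages of gland development, after hormone exposure and in tumours, by droplet single-cell RNA sequencing, which counts 1 tag (a UMI, unique molecular identifier) per captured transcript near its 3′ end. Puberty (4 weeks), adult virgin (9 weeks), pregnancy (day 14.5), lactation (day 10) and involution (day 4) had 1 library each, from wild-type C57BL/6 females. Ages are those of the labels, and the study's methods give a slightly older one for puberty. Hormone treatment of C57BL/6 females, 9 weeks old at collection, compared 2 placebo libraries with 2 MPA+E libraries. MPA+E is medroxyprogesterone acetate, a synthetic progestin, given with estradiol from implanted pellets for 7 days. All 9 of these libraries came from stroma sorted as negative for the lineage markers CD31, CD45 and TER-119 and for CD24, with 2 females per stage and, per the study's methods, 2 females per hormone replicate. Hyperplastic gland and tumour had 2 libraries each, from raGFP-Wnt1 mice on a mixed C57BL/6 and FVB background, in which the MMTV promoter drives Wnt1 in the mammary epithelium. In these mice a GFP reporter was knocked into 1 copy of Pdgfra, so the sorted GFP-positive cells were selected on the activity of a member gene and carried 1 intact copy of it. The study took hyperplastic gland and tumour from the same mouse. By number and age, the libraries numbered 1 were taken as 1 mouse of 45 weeks and those numbered 2 as 1 mouse of 17 weeks.

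As background, PDGFs are secreted dimers that bind receptor tyrosine kinases on mesenchymal cells and drive their growth and migration. Pdgfra and Pdgfrb encode the receptor chains, of which the α chain marks fibroblasts in many tissues and the β chain marks pericytes and vascular smooth muscle as well. Pdgfa, Pdgfb, Pdgfc and Pdgfd encode the ligands. PDGF-A and PDGF-B are released in active form, while PDGF-C and PDGF-D need proteases such as plasminogen activators to cut off a domain first. PDGF-B from endothelium recruits mural cells to vessels. Pdgfrl encodes a secreted protein related to the extracellular part of the receptors, with no kinase domain.

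Pdgfra (ENSMUSG00000029231) lies on chromosome 5, plus strand, from 75152292 to 75198215 in GENCODE M21 on GRCm38, and Pdgfa (ENSMUSG00000025856) lies on the same chromosome, minus strand, from 138976014 to 138997370. Both are protein-coding, and they are shown because they were the members called as changed in tumours. The 250 bases before a RefSeq start of each gene (build GRCm38.p6, 5′ to 3′ on the gene's strand) are printed with motif matches in capitals. The Pdgfra window spans chr5:75152001-75152250 and the Pdgfa window chr5:138994945-138995194, the second of 2 starts listed for Pdgfa.
Pdgfra: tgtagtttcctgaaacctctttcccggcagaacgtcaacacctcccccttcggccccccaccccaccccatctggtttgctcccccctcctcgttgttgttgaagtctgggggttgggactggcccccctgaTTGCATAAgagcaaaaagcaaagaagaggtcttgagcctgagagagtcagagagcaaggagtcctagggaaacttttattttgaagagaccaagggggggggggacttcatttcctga
Pdgfa: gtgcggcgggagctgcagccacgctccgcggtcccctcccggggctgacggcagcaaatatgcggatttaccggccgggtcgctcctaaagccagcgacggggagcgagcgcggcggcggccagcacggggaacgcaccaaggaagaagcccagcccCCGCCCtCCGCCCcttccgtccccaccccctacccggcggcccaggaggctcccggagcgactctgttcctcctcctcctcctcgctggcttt
Searched on both strands were TTGCNNAA, a C/EBP-type motif, AGAACA, a steroid receptor half-site, and GGGCGG, the GC box. Of 32851 windows of the same length, 9.56% held the first, 16.1% the second and 32.7% the third. The Pdgfra window held 1 match, to TTGCNNAA, and the Pdgfa window 2 matches, to the GC box on the opposite strand. The window of the other Pdgfa start, chr5:138994282-138994531, is not printed and held 1 match, to the GC box. A match is a run of letters and no evidence of binding, and the libraries measured transcript tags, not promoters. Pdgfc (ENSMUSG00000028019, chromosome 3, plus strand, 81036416 to 81214040), Pdgfd (ENSMUSG00000032006, chromosome 9, plus strand, 6168584 to 6378850), Pdgfrl (ENSMUSG00000031595, chromosome 8, plus strand, 40926212 to 40990785) and Pdgfb (ENSMUSG00000000489, chromosome 15, minus strand, 79995874 to 80014977) are protein-coding too.

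Each library had between 5230 and 14424 barcodes, and its total ranged from 56551189 to 112550204 UMIs. Fibroblast barcodes were those with 500 to 7500 genes, at most 10% mitochondrial UMIs, at least 50 UMIs of Dcn, Lum and Col1a2 per 10000, and no UMI of Epcam, Pecam1, Rgs5, Sox10, Ptprc or Myog, so no member took part in the choice except through the GFP sort. They numbered 4236 to 11951 per library, 84.7% to 94.5% of the barcodes within the gene and mitochondrial limits, with a median of 3990 (pregnancy) to 20256 (tumour 2) UMIs each. Summed endothelial, epithelial and immune markers other than Pecam1, Epcam and Ptprc, which the rule itself holds at 0, stayed in them at or below 8.72 CPM (counts per 1000000 UMIs), except for 33.4 CPM of epithelial markers in pregnancy, and smooth muscle markers ran from 4.41 CPM in hyperplasia 1 to 1817 CPM in tumour 2. Any pair of libraries shared at most 0.503% of the smaller one's fibroblast barcodes. Values are CPM of the UMIs summed over a library's fibroblasts, so a summed level cannot separate more barcodes in a state from more UMIs per barcode. Levels are compared between libraries and classes gene by gene, and UMI counts of different genes can differ in capture as well as in transcript number.

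Pdgfra was the most variable receptor chain. Fibroblasts of the puberty library held 199 CPM of it, those of the adult 268 CPM, of pregnancy 218 CPM, of lactation 520 CPM and of involution 446 CPM. The placebo libraries stood at 428 and 350 CPM and the MPA+E libraries at 622 and 502 CPM. Hyperplasia stood at 248 and 249 CPM and tumours at 171 and 117 CPM. The highest levels were thus those of MPA+E and lactation and the lowest those of the tumours. Unlike the wild-type libraries, the raGFP-Wnt1 libraries in this ranking hold 1 intact Pdgfra copy and were sorted on its reporter. Over all 13 libraries the Pdgfra profile had an SD of 0.71 on the log2 scale, against 0.26 for Pdgfrb.

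Pdgfrb varied less. In fibroblasts its level was 101, 128, 161, 173 and 193 CPM in puberty, adult, pregnancy, lactation and involution. Placebo libraries held 132 and 114 CPM and MPA+E libraries 140 and 134 CPM. Hyperplasia libraries held 172 and 154 CPM and tumour libraries 146 and 162 CPM. As a description of captured tags, the UMIs of Pdgfra outnumbered those of Pdgfrb 4.44 and 3.73 times in the MPA+E libraries and 3.24 and 3.06 times under placebo. They outnumbered them 1.44 and 1.61 times in hyperplasia and 1.18 times in tumour 1, while in tumour 2 the ratio was 0.718, the one library in which Pdgfrb UMIs were more numerous. Among the stages the ratio was 1.97 in puberty, 2.09 in the adult, 1.35 in pregnancy and 2.31 in involution, and it was highest in lactation. Wild-type pregnancy thus lay below both hyperplasia libraries. The raGFP-Wnt1 libraries hold 1 intact Pdgfra copy and were sorted on its reporter, and the part of this in their ratios was not tested.

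Pdgfrl was high in puberty and in the raGFP-Wnt1 libraries. It stood at 80.4 CPM in puberty and at 21.8, 36.0, 29.3 and 22.4 CPM in adult, pregnancy, lactation and involution. The placebo and MPA+E libraries ranged from 22.2 to 33.5 CPM. Hyperplasia libraries held 65.6 and 48.3 CPM and tumour libraries 143 and 178 CPM. The tumours thus lay above every other library for this gene.

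**Figure D1:**
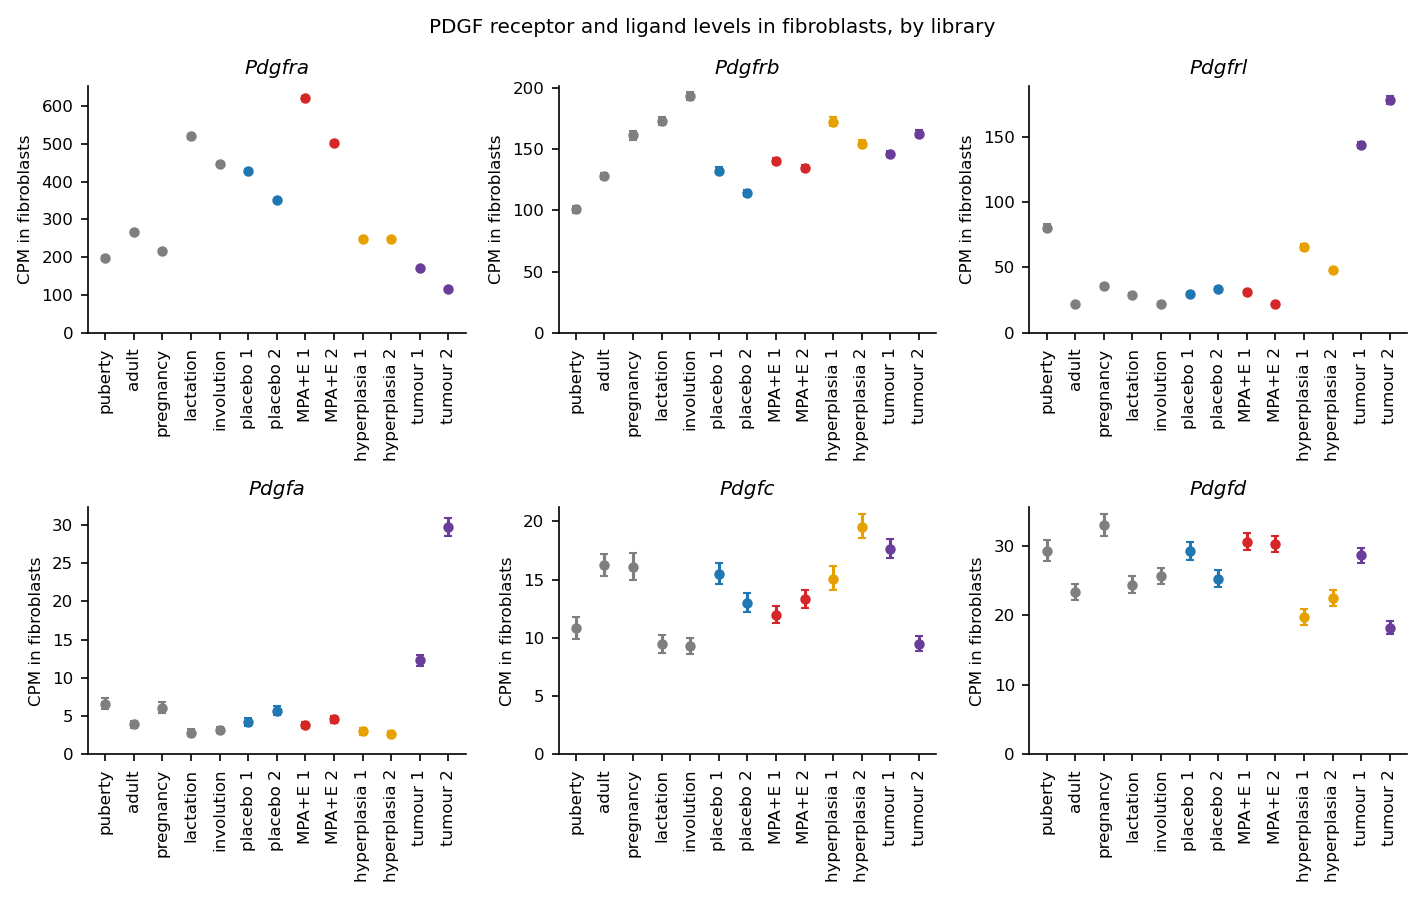
Level of 6 members in fibroblasts (CPM, linear axis from 0) in each of the 13 libraries, with exact Poisson 95% intervals that cover counting error only; grey marks stages, blue placebo, red MPA+E, yellow hyperplasia and violet tumour. Pdgfra was lowest in the tumours (171 and 117 CPM), which like hyperplasia hold 1 intact copy of it. Pdgfrl (143 and 178 CPM) and Pdgfa (12.3 and 29.7 CPM) were highest in the tumours. Pdgfb, at most 0.547 CPM, is not drawn.

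The ligands were sparse in fibroblasts. Pdgfd ranged from 18.2 CPM (tumour 2) to 33.0 CPM (pregnancy) and Pdgfc from 9.27 CPM (involution) to 19.5 CPM (hyperplasia 2). Pdgfa ranged from 2.64 to 6.61 CPM outside tumours and reached 12.3 and 29.7 CPM in tumour 1 and tumour 2. Pdgfb was close to absent, with 71 UMIs over the 73342 fibroblasts of the wild-type libraries. It was highest in pregnancy, with 26 UMIs or 0.547 CPM (exact Poisson 95% interval 0.357 to 0.802). Fibroblasts of that library also held 33.4 CPM of epithelial and 353 CPM of smooth muscle markers, each the highest outside the tumours, and their part in the Pdgfb level was not tested. The 12 other libraries held 0 to 10 Pdgfb UMIs each, and at 0 UMIs in hyperplasia 1 a level up to 0.0531 CPM (3 UMIs) is allowed.

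Each stage was 1 library, so stages were compared without a test. Pdgfra was 2.61 times as high in lactation as in puberty (exact 95% interval for counting error 2.55 to 2.67). Pdgfrb was 1.92 times as high in involution as in puberty (1.85 to 1.98), and Pdgfrl 3.70 times as high in puberty as in the adult (3.49 to 3.92). Among ligands, Pdgfa was 2.34 times as high in puberty as in lactation (1.94 to 2.83), Pdgfc 1.75 times as high in the adult as in involution (1.59 to 1.92), and Pdgfd 1.41 times as high in pregnancy as in the adult (1.32 to 1.51). These intervals hold no spread between animals. For scale, the 3 virgin libraries of 9 weeks (adult and both placebos) differed from each other by 1.60 times for Pdgfra, 1.16 times for Pdgfrb, 1.54 times for Pdgfrl, 1.45 times for Pdgfa and 1.25 times for both Pdgfc and Pdgfd. Pdgfra in lactation and involution lay above the range of those 3 libraries, and in puberty and pregnancy below it. Pdgfrb lay above their range in pregnancy, lactation and involution and below it in puberty, and Pdgfrl lay above it in puberty. Pdgfa lay below it in lactation, Pdgfc lay below it in puberty, lactation and involution, and Pdgfd above it in pregnancy. Pdgfrl in pregnancy, Pdgfa in puberty, pregnancy and involution and Pdgfd in puberty were outside the range as well, but with counting intervals that overlapped that of the nearest of the 3 libraries.

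Shares of fibroblasts with a receptor tag are given at full depth and after thinning. A Pdgfra UMI was found in 51.2% (pregnancy) to 93.3% (MPA+E 1) of fibroblast barcodes, and, after each barcode was thinned to 2000 UMIs, in 19.9% (tumour 2) to 62.2% (MPA+E 1). Thinning left out 1.42% to 11.4% of fibroblast barcodes per library as too shallow. Tumour 1 and tumour 2 had unthinned shares of 70.9% and 71.5% and thinned shares of 27.8% and 19.9%, and both hyperplasia libraries had higher thinned shares, 36.4% and 37.7%. A Pdgfrb UMI was found in 40.9% to 78.9% of fibroblasts, or 17.8% to 28.8% after thinning. As a background, the involution library held 184 endothelial barcodes low in fibroblast genes, with a median of 1732 UMIs against 7293 in its fibroblasts. Of these 2.17% had a Pdgfra UMI (exact 95% interval 0.595% to 5.47%) and 1.63% a Pdgfrb UMI, against 85.2% and 62.7% of the fibroblasts. Shares of ligands were lower in fibroblasts, with thinned medians over 13 libraries of 5.0% for Pdgfd, 2.45% for Pdgfc, 0.821% for Pdgfa and 0.0181% for Pdgfb. The Pdgfb share lies below the thinned median of 29.2% over 5 libraries in barcodes with Pecam1 and low in fibroblast genes. Their thinned share ran from 0% in hyperplasia 1 to 38.0% in involution. The hyperplasia 1 barcodes held 0 CPM of endothelial markers other than Pecam1, and 52.0% of them had a Pdgfra UMI before thinning. They are therefore not called endothelial, though the median includes them. Most of the involution barcodes, with a median of 1732 UMIs, were too shallow to be thinned. For Pdgfa the thinned share of fibroblasts was 0.621% and 0.452% in hyperplasia and 1.89% and 4.59% in tumours. For Pdgfrl it was 12.0% and 9.54% against 19.1% and 26.9%.

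The hormone comparison asked what 7 days of MPA+E did to fibroblasts. No member passed an adjusted p of 0.05 (edgeR quasi-likelihood test, 2 libraries against 2), while 4.33% of the 15642 genes tested did, or 0.136% without placebo 1 and 0.257% without placebo 2. Pdgfra was higher in both MPA+E libraries (622 and 502 CPM) than in both placebo libraries (428 and 350 CPM), by 0.54 ± 0.13 (SE) on the log2 scale, with adjusted p = 0.107. The groups, of 2 libraries each, did not overlap. How many of all genes do so with 2 libraries against 2 was not counted, here or below, so non-overlap is a description. Pdgfra was called by DESeq2 (log2 fold 0.53, adjusted p = 0.00915), as were 8.68% of genes. It was also called by edgeR with the replicate number as a block (0.54, adjusted p = 0.00835), as were 15.7% of genes. By the labels that number pairs no hormone libraries. The study found more Crabp1-positive fibroblasts after MPA+E, and Pdgfra was highest in a gate on Crabp1 and Pla2g7, described below. Their part in the Pdgfra difference was not tested. For Pdgfrb the log2 difference was 0.17 ± 0.09 (adjusted p = 0.437), for Pdgfd 0.17 ± 0.09 (adjusted p = 0.401) and for Pdgfc -0.16 ± 0.13 (adjusted p = 0.610). Pdgfa and Pdgfrl were each at -0.23, with SEs of 0.24 and 0.18. Pdgfb was too low to be tested in fibroblasts.

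Hyperplasia was compared with normal gland, which joined the puberty and adult libraries as the study's methods did. None of the 6 members tested was called (limma-voom), against 14.0% of 16302 genes. The largest ratio of difference to error was that of Pdgfrb, at 172 and 154 CPM in hyperplasia against 101 and 128 CPM in normal gland. Its log2 difference was 0.49 ± 0.16, with adjusted p = 0.0886 and no overlap between groups. A gate on Crabp1 and Pla2g7, described below and highest in Pdgfrb, held 30 of 7121 fibroblasts in puberty and 246 of 11951 in the adult. The study reports Crabp1-positive fibroblasts as the largest population in hyperplasia, and their part in the Pdgfrb difference was not tested. Pdgfa (-0.85 ± 0.59, adjusted p = 0.342) and Pdgfd (-0.34 ± 0.27, adjusted p = 0.396) were lower, also without overlap of the levels. For Pdgfd the counting intervals of hyperplasia 2 (21.4 to 23.6 CPM) and the adult (22.3 to 24.5 CPM) did overlap. The groups overlapped in level for Pdgfrl (0.39 ± 0.58, adjusted p = 0.657) and Pdgfc (0.32 ± 0.35, adjusted p = 0.543). Pdgfra differed by 0.07 ± 0.24 (adjusted p = 0.852). Its value turned to -0.48 ± 0.25 (adjusted p = 0.334) with the adult and placebo libraries as normal gland, a set chosen after the data were seen. Genotype, strain background, age and the sort on GFP differ between these groups as well and cannot be told apart from hyperplasia, and the count of called genes was 1 without hyperplasia 2, 2 without hyperplasia 1, 8 without puberty and 183 without the adult. With the mouse as a block it rose from 2280 to 3471, and no member was called.

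Tumours were compared with hyperplastic gland of the same mice, in the same fit, which had no term for the mouse. Of the 6 members tested 2 were called, Pdgfa and Pdgfra, against 29.3% of 16302 genes. That share was 1.43% without hyperplasia 1, 1.84% without hyperplasia 2, 17.5% without puberty and 17.3% without the adult. Pdgfa, a ligand of the α chain, was at 3.0 and 2.6 CPM in hyperplasia (169 and 191 UMIs) and at 12.3 and 29.7 CPM in tumours (1260 and 2607 UMIs). Both tumours lay above both hyperplasia libraries, by a log2 fold of 2.77 ± 0.53 (adjusted p = 0.0168). Pdgfra was at 248 and 249 CPM in hyperplasia and at 171 and 117 CPM in tumours. Both tumours lay below, and the log2 fold was -0.81 ± 0.24 (adjusted p = 0.0467). Pdgfrl was at 65.6 and 48.3 CPM in hyperplasia and 143 and 178 CPM in tumours, again without overlap, but its log2 fold of 1.51 ± 0.60 had adjusted p = 0.100. Pdgfrb (-0.08 ± 0.17), Pdgfc (-0.41 ± 0.34) and Pdgfd (0.12 ± 0.26) were not called, with adjusted p of 0.723, 0.380 and 0.750.

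The Pdgfra call was close to the threshold and was lost with edgeR (adjusted p = 0.0558), with no filter on low counts (0.0528), with at least 100 fibroblast-gene UMIs per 10000 (0.0539), without tumour 2 (log2 fold -0.50, adjusted p = 0.115) and without any other of the 6 libraries of the fit but tumour 1 (adjusted p from 0.0698 to 0.195). The Pdgfa call was lost without either hyperplasia library (adjusted p = 0.113 and 0.0965), at log2 folds of 2.86 and 2.66. Summed epithelial markers in tumour fibroblasts, 1.17 and 0.809 CPM, were near those of hyperplasia, 0.531 and 1.04 CPM. Summed smooth muscle markers, of which Acta2 is one, were 676 and 1817 CPM in tumours and 4.41 and 6.09 CPM in hyperplasia, and their part in the member results was not tested.

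**Figure D2:**
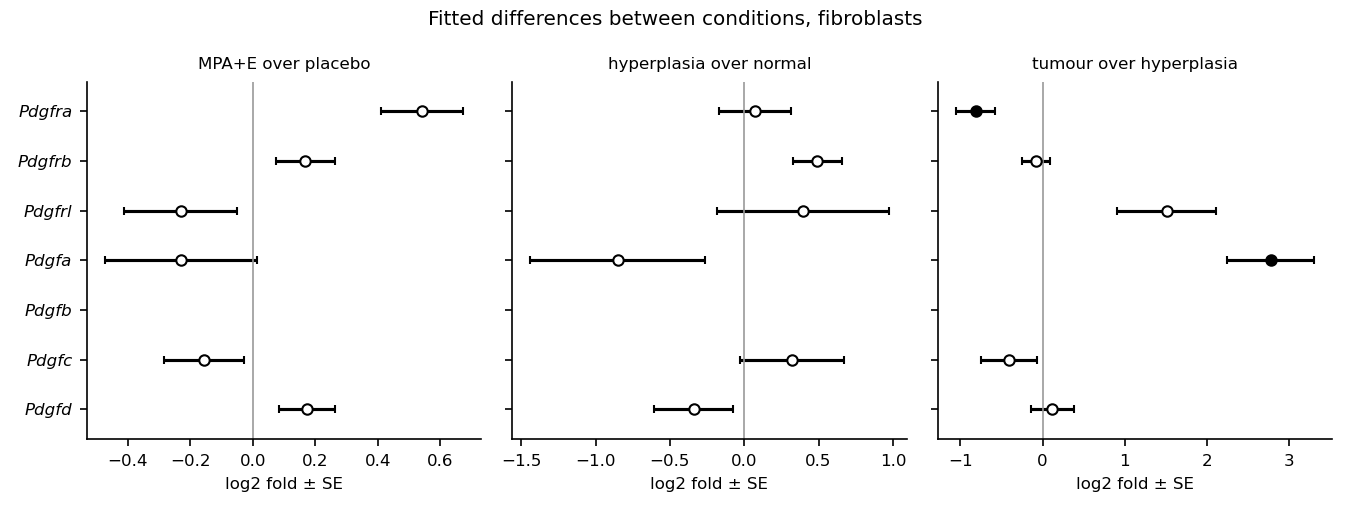
Fitted log2 difference of each member in fibroblasts with its standard error (bars), for MPA+E over placebo, hyperplasia over normal gland and tumour over hyperplasia; filled points have adjusted p under 0.05, and the panels have their own scales. Pdgfa (2.77) and Pdgfra (-0.81) in tumours are the filled points, and Pdgfb was too low to be tested.

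Acta2 and Lrrc15 mark contractile, matrix-producing fibroblasts of tumours. Barcodes with at least 3 UMIs of the pair numbered 3303 of 8917 fibroblasts in tumour 1 and 3108 of 4236 in tumour 2, against 73 of 6044 and 64 of 7984 in hyperplasia. Median fibroblast depth was 10824 and 20256 UMIs in the tumours and 8703 and 8311.5 UMIs in hyperplasia. The part of depth in these counts was not tested. Pdgfa was at 19.7 and 33.0 CPM in these barcodes and at 5.54 and 14.5 CPM in the other fibroblasts of tumour 1 and tumour 2. It was the member called, with a log2 fold of 1.49 ± 0.18 (limma-voom with the tumour as a covariate, adjusted p = 0.0314), against 3.81% of 14840 genes, and it was not called without the filter on low counts (adjusted p = 0.0987). Pdgfrl was at 245 and 191 CPM in the gated barcodes and at 51.5 and 119 CPM in the others (log2 fold 1.43 ± 0.36, adjusted p = 0.104). In the other direction, Pdgfra was at 145 and 104 CPM in the gated barcodes and at 196 and 177 CPM in the others (log2 fold -0.65 ± 0.11, adjusted p = 0.0556). The ungated fibroblasts of both tumours were thus below the 248 and 249 CPM of Pdgfra in ungated hyperplasia fibroblasts. These ungated sets were not matched for other fibroblast states, whose part was not tested. For Pdgfrl the ungated fibroblasts of tumour 1, at 51.5 CPM, lay between those of the hyperplasia libraries, at 65.7 and 48.6 CPM. Pdgfrb (0.32 ± 0.16), Pdgfc (-0.81 ± 0.39) and Pdgfd (-0.27 ± 0.11) were not called in the tumour gate, with adjusted p of 0.279, 0.278 and 0.220. In the 9 wild-type libraries the same gate held 3150 of 73342 fibroblasts and was described without a test. Pdgfa was at 4.01 to 47.1 CPM (median 25.6) in these barcodes and at 2.10 to 5.64 CPM (median 3.16) in the others, higher in all 9 libraries. Pdgfrb was higher in all 9 as well, at medians of 210 and 130 CPM, while Pdgfra, at medians of 435 and 428 CPM, was higher in 6 of 9. Acta2 is also a smooth muscle gene, and the part of such RNA in these levels was not tested.

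Mural cells, the pericytes and smooth muscle cells of vessel walls, were taken as the barcodes with at least 2 UMIs of Rgs5. They numbered 35 to 263 in the wild-type libraries. In the raGFP-Wnt1 libraries, sorted on the Pdgfra reporter, they numbered 4, 3, 13 and 33. In the classes of at least 20 barcodes, Rgs5 barcodes held 775 to 3494 CPM of the 6 pericyte markers other than Rgs5, which the rule used, against 22.4 to 65.1 CPM in fibroblasts. They also held 1238 to 13701 CPM of smooth muscle markers and 4402 to 27085 CPM of fibroblast markers, so the class is a mix of mural cells with fibroblast RNA and is not called pericyte alone. A strict class, with under 50 UMIs of Dcn, Lum and Col1a2 per 10000, held 28 to 225 barcodes per wild-type library and 356 to 5610 CPM of fibroblast markers.

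The receptor chains went opposite ways between mural cells and fibroblasts. Pdgfrb ranged from 263 to 1025 CPM (median 457) in Rgs5 barcodes and from 101 to 193 CPM (median 134) in fibroblasts of the 9 wild-type libraries. The ranges did not overlap and all 9 libraries had the higher level in Rgs5 barcodes, by a log2 fold of 1.49 ± 0.11 (edgeR with the library as a covariate, adjusted p = 4.54e-09). Pdgfra ranged from 42.5 to 149 CPM (median 124) in Rgs5 barcodes and from 199 to 622 CPM (median 428) in fibroblasts, lower in all 9, with a log2 fold of -2.25 ± 0.15 (adjusted p = 9.45e-10). In the strict class Pdgfra was at 0 to 13.4 CPM, a total of 33 UMIs over 1105 barcodes. Pdgfrl was lower in Rgs5 barcodes as well, at 6.72 to 29.2 CPM (log2 fold -1.58 ± 0.18, adjusted p = 5.72e-07). Strict mural Pdgfrb was highest in lactation (1532 CPM) and involution (1229 CPM) and lowest in placebo 2 (333 CPM). Summed pericyte markers in the strict class of these libraries were 14220, 8828 and 2897 CPM in that order. Smooth muscle markers were 2763, 1753 and 15276 CPM, and the part of this mix in the Pdgfrb levels was not tested.

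The ligand Pdgfa was higher in mural cells than in fibroblasts. It ranged from 160 to 508 CPM (median 265) in Rgs5 barcodes and from 2.82 to 6.61 CPM in fibroblasts, and the log2 fold was 5.70 ± 0.20 (adjusted p = 8.97e-14). Pdgfb held 89 UMIs over 1348 Rgs5 barcodes, 4.63 to 16.8 CPM, and 71 UMIs over 73342 fibroblasts (log2 fold 6.45 ± 0.53, adjusted p = 1.22e-08). Pdgfd was lower in Rgs5 barcodes (log2 fold -0.71 ± 0.16, adjusted p = 0.00116). Pdgfc, at -0.49 ± 0.20, stood at the threshold, with adjusted p = 0.050 and not called. It was called with the strict class (log2 fold -1.08, adjusted p = 0.0164). In all, 6 of 7 members were called, against 46.0% of 15805 genes. Those genes split into 2824 higher and 4453 lower, or 3505 and 3567 with DESeq2 size factors, and the median over all genes moved from -0.13 to 0.01 on the log2 scale.

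The other ligand sources lay in small classes, described without a test. Barcodes with Pecam1 held 12322 to 55979 CPM of fibroblast markers, so strict endothelial and epithelial classes, low in Dcn, Lum and Col1a2, were added after the data were seen. Pdgfb was at 106 to 391 CPM (median 227) in strict endothelial barcodes of 6 wild-type libraries, above the 7.73 to 19.4 CPM of strict mural barcodes and the 4.68 to 32.2 CPM of strict epithelial barcodes. Those epithelial barcodes, marked by Epcam in 5 wild-type libraries, held Pdgfa at 50.6 to 207 CPM (median 108), Pdgfc at 30.7 to 61.8 CPM and Pdgfrl at 19.5 to 51.3 CPM. Their Pdgfra stayed at 0 to 12.8 CPM and their Pdgfd at 0 to 3.0 CPM, with 3 of 5 libraries at 0 UMIs of Pdgfd. They held 3742 to 23440 CPM of smooth muscle markers beside 4277 to 6566 CPM of epithelial markers, more of the former in 4 of 5 libraries, and the part of contractile cells in their Pdgfa was not tested. The strict endothelial barcodes held 2772 to 4254 CPM of endothelial markers other than Pecam1, with 2913 CPM of smooth muscle markers in pregnancy and 1238 CPM of immune markers in involution. In strict endothelial barcodes Pdgfra held 9 UMIs over 384 barcodes and Pdgfc 1 UMI, while Pdgfd was at 11.7 to 90.2 CPM. Sorting had removed most CD31-positive and CD24-positive cells, so these barcodes are those that escaped it.

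**Figure D3:**
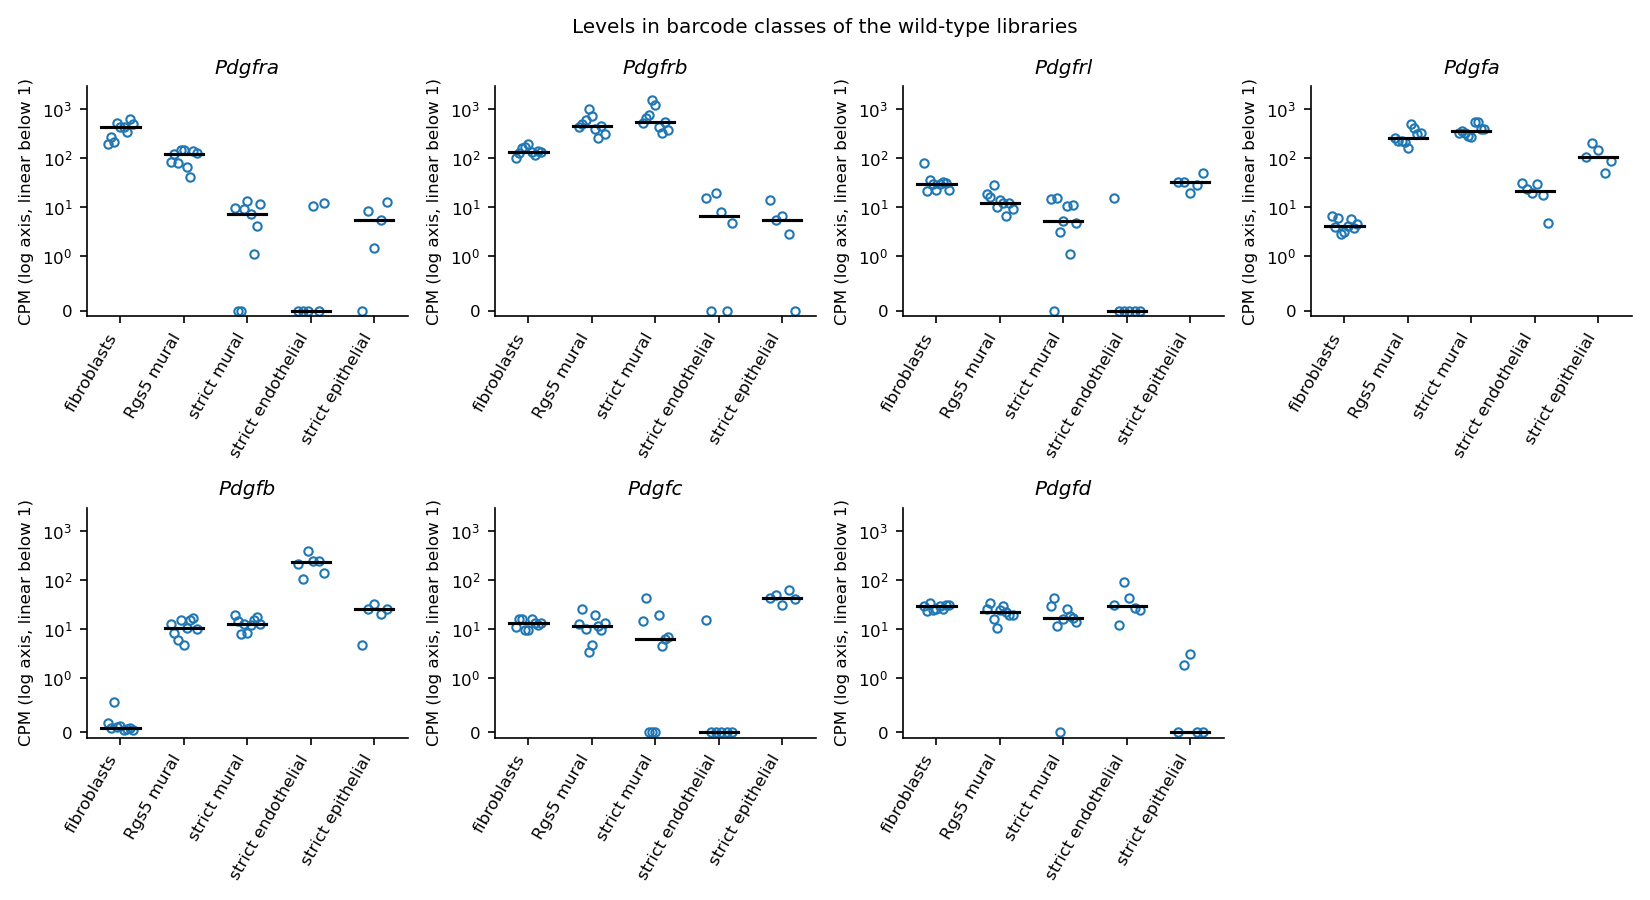
Level of each member (CPM, log axis that is linear below 1) in barcode classes of the wild-type libraries; each circle is a library with at least 20 barcodes of the class and bars are medians. Pdgfra is highest in fibroblasts (median 428 CPM), Pdgfrb and Pdgfa in strict mural barcodes (549 and 367 CPM) and Pdgfb in strict endothelial barcodes (227 CPM).

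MPA+E was compared with placebo in Rgs5 barcodes too. No member was called, against 0.304% of 8882 genes, a share that was 0 without placebo 1 and 2.25% without placebo 2. Pdgfra was at 67.3 and 42.5 CPM under placebo and 140 and 131 CPM under MPA+E, without overlap (log2 fold 1.30 ± 0.25, adjusted p = 0.125). With the replicate number as a block, which pairs no hormone libraries by the labels, it was called (1.32, adjusted p = 0.0312), as were 1.17% of genes. Summed fibroblast markers in the same barcodes were 4402 and 8733 CPM under placebo and 14249 and 9695 CPM under MPA+E, and their part in that difference was not tested. In strict mural barcodes Pdgfra held 6 and 1 UMIs under placebo and 4 and 12 under MPA+E. Pdgfa was at 508 and 409 CPM under placebo and 309 and 327 CPM under MPA+E (log2 fold -0.54 ± 0.20, adjusted p = 0.488). Summed smooth muscle markers in these barcodes were 13701 and 11773 CPM under placebo and 8584 and 8042 CPM under MPA+E, also without overlap, and their part was not tested. The difference between the effects in Rgs5 barcodes and in fibroblasts was called for none of the 7 members, against 1.28% of 15202 genes, and was 0.75 ± 0.24 for Pdgfra (adjusted p = 0.168) and -0.64 ± 0.31 for Pdgfd (adjusted p = 0.593).

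Fibroblasts were then split by 5 pairs of genes that mark states, with at least 3 UMIs of a pair and under 3 of each other pair. Pi16 and Dpp4 mark fibroblasts with progenitor features, Fabp4 and Cd36 mark preadipocytes, and Thbs4 and Cilp, Gdf10 and Clec11a, and Crabp1 and Pla2g7 mark further states. Gated barcodes of the 9 wild-type libraries numbered 28526, 4040, 5370, 4067 and 3051 in that order, and each set was compared with the other fibroblasts of the same libraries. These others include barcodes with at least 3 UMIs of 2 or more pairs. Such barcodes also stay in the reference where the Pi16 and Dpp4 gate is left out of it below. A gate is a range of 2 genes, not a cell type, and no pair holds a member of the family. The ligand Pdgfc separated these states the most.

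Pi16 and Dpp4 barcodes had more of the ligands Pdgfc and Pdgfd and less of Pdgfa and of both receptor chains. Pdgfc was at 17.1 to 30.7 CPM in them and at 2.86 to 7.11 CPM in the other fibroblasts, with no overlap and a higher level in all 9 libraries (edgeR, log2 fold 2.47 ± 0.12, adjusted p = 3.45e-09). Pdgfd was at 32.5 to 46.6 CPM against 11.9 to 28.3 CPM (log2 fold 1.09 ± 0.13, adjusted p = 1.71e-05). Pdgfra was lower in all 9 libraries, at a median of 291 against 504 CPM (log2 fold -0.71 ± 0.06), and so was Pdgfrb, at a median of 104 against 156 CPM (log2 fold -0.69 ± 0.09). Pdgfrl and Pdgfa had log2 folds of -2.03 ± 0.18 and -1.77 ± 0.18. The called members were thus 6 of the 6 tested, against 61.1% of 15395 genes, a share at which most genes were called.

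Pdgfc was lower in each of the other 4 gates than in the other fibroblasts, which include the Pi16 and Dpp4 barcodes. Fibroblasts outside the Pi16 and Dpp4 gate had a median of 3.93 CPM, and against that level the Thbs4 and Cilp gate, with a median of 4.88 CPM, was not lower. Its level was 0.205 to 1.65 CPM in Fabp4 and Cd36 barcodes (29 UMIs over 4040 barcodes, log2 fold -4.18 ± 0.18) and 0 to 1.21 CPM in Crabp1 and Pla2g7 barcodes (18 UMIs over 3051 barcodes, log2 fold -4.63 ± 0.23). It was 1.09 to 5.14 CPM in Gdf10 and Clec11a barcodes (log2 fold -2.41 ± 0.17) and 0.871 to 12.9 CPM in Thbs4 and Cilp barcodes (log2 fold -1.05 ± 0.23, lower in 7 of 9 libraries). All 4 were called, with adjusted p from 1.21e-10 to 0.00461. Pdgfd had log2 folds from -0.71 to -0.85 in the same gates, all called against the same reference. It was lower in all 9 libraries in the Thbs4 and the Gdf10 gates and in 7 of 9 in the Fabp4 and the Crabp1 gates. In Crabp1 and Pla2g7 barcodes it ranged from 5.34 to 43.9 CPM, and summed over libraries it was at 26.9 CPM against 27.8 CPM in the other fibroblasts.

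Both receptor chains were highest in Crabp1 and Pla2g7 barcodes. Pdgfra was at 360 to 1333 CPM (median 747) in them and higher than in the other fibroblasts in all 9 libraries (log2 fold 0.80 ± 0.10, adjusted p = 1.12e-05). Pdgfrb was at 246 to 549 CPM (median 339), above the 98.3 to 193 CPM of the other fibroblasts without overlap (log2 fold 1.22 ± 0.14, adjusted p = 7.97e-06). The puberty library held 30 such barcodes and the others 99 to 959. Of 7 members tested 4 were called, against 44.4% of 15527 genes.

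Pdgfrl marked other gates. It was at 36.6 to 183 CPM (median 66.9) in Thbs4 and Cilp barcodes and at 28.2 to 140 CPM (median 62.0) in Gdf10 and Clec11a barcodes. The log2 folds over the other fibroblasts were 1.38 ± 0.15 and 1.10 ± 0.10, with adjusted p = 1.36e-05 and 6.25e-08, and both held in all 9 libraries. Pdgfrl was at 2.81 to 20.3 CPM in Fabp4 and Cd36 barcodes (log2 fold -2.27 ± 0.12, adjusted p = 1.48e-09), below the other fibroblasts without overlap. Pdgfa rose in Gdf10 and Clec11a barcodes (log2 fold 1.09 ± 0.15) and in Thbs4 and Cilp barcodes (0.61 ± 0.18, adjusted p = 0.0248), the latter at a median of 6.33 CPM, near the 5.98 CPM of the fibroblasts outside the Pi16 and Dpp4 gate.

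Other receptor differences between the gates were smaller. Pdgfra was higher in Thbs4 and Cilp barcodes (log2 fold 0.44 ± 0.04, adjusted p = 3.65e-06) and was not called in Fabp4 and Cd36 (-0.06 ± 0.06) or in Gdf10 and Clec11a barcodes (0.04 ± 0.05). Pdgfrb was lower in Gdf10 and Clec11a barcodes (-0.55 ± 0.08) and higher in Fabp4 and Cd36 barcodes (0.25 ± 0.06, adjusted p = 0.00565). In all, 4 of 6 tested members were called for Fabp4 and Cd36 against 37.5% of genes, 5 of 7 for Thbs4 and Cilp against 21.0%, and 5 of 7 for Gdf10 and Clec11a against 39.0%. With DESeq2 size factors the called genes moved from 2325 higher and 3404 lower to 2984 and 2836 for Fabp4 and Cd36, and from 1488 and 1824 to 1860 and 1478 for Thbs4 and Cilp.

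These 4 gates were also compared with the fibroblasts outside both the gate and the Pi16 and Dpp4 gate, a reference chosen after the data were seen. Some calls above were lost against it. In Fabp4 and Cd36 barcodes 3 of 6 members were called, against 30.0% of genes. Pdgfrb (0.03 ± 0.04, adjusted p = 0.697) and Pdgfd (-0.11 ± 0.12, adjusted p = 0.563) were no longer called there, and Pdgfra was called as lower (-0.30 ± 0.05, adjusted p = 0.000370). In Thbs4 and Cilp barcodes 2 of 6 were called, against 12.8% of genes, namely Pdgfra (0.21 ± 0.04) and Pdgfrl (0.88 ± 0.13). Pdgfa (0.12 ± 0.16, adjusted p = 0.716), Pdgfd (-0.27 ± 0.10, adjusted p = 0.0767) and Pdgfc, whose sign turned (0.43 ± 0.23, adjusted p = 0.260), were not. In Crabp1 and Pla2g7 barcodes 4 of 7 were called, against 39.2% of genes. Pdgfra (0.58 ± 0.09), Pdgfrb (1.02 ± 0.15) and Pdgfc (-3.26 ± 0.31) were called as before, Pdgfa was now called as lower (-1.02 ± 0.25, adjusted p = 0.00487) and Pdgfd was not called (-0.20 ± 0.19, adjusted p = 0.459). In Gdf10 and Clec11a barcodes all 6 tested were called, against 38.0% of genes. Pdgfra was now lower (-0.22 ± 0.05, adjusted p = 0.00304), and Pdgfrb, Pdgfrl, Pdgfa, Pdgfc and Pdgfd kept the direction given above.

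**Figure D4:**
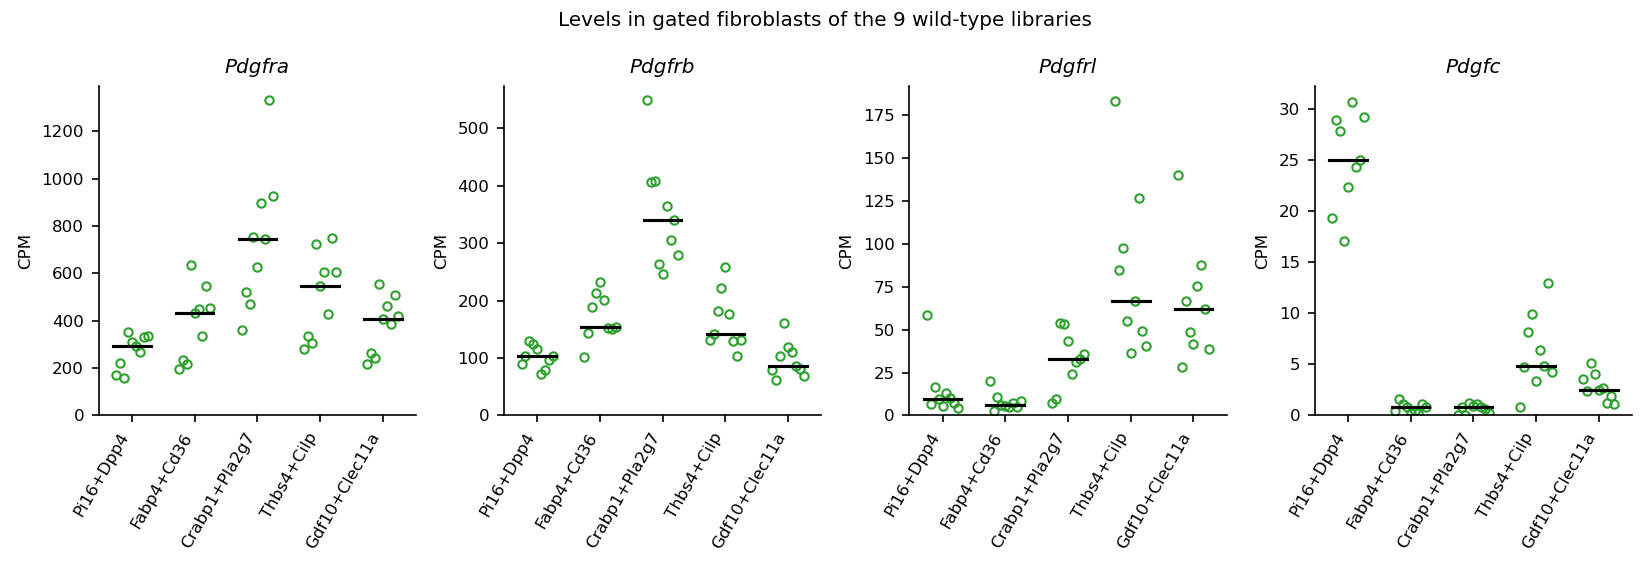
Level (CPM, linear axis from 0) of Pdgfra, Pdgfrb, Pdgfrl and Pdgfc in 5 gated sets of fibroblasts; each circle is 1 of the 9 wild-type libraries and bars are medians. Pdgfc is highest in Pi16 and Dpp4 barcodes (17.1 to 30.7 CPM), both receptor chains in Crabp1 and Pla2g7 barcodes (medians 747 and 339 CPM), and Pdgfrl in the Thbs4 and Gdf10 gates (medians 66.9 and 62.0 CPM).

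**Figure D5:**
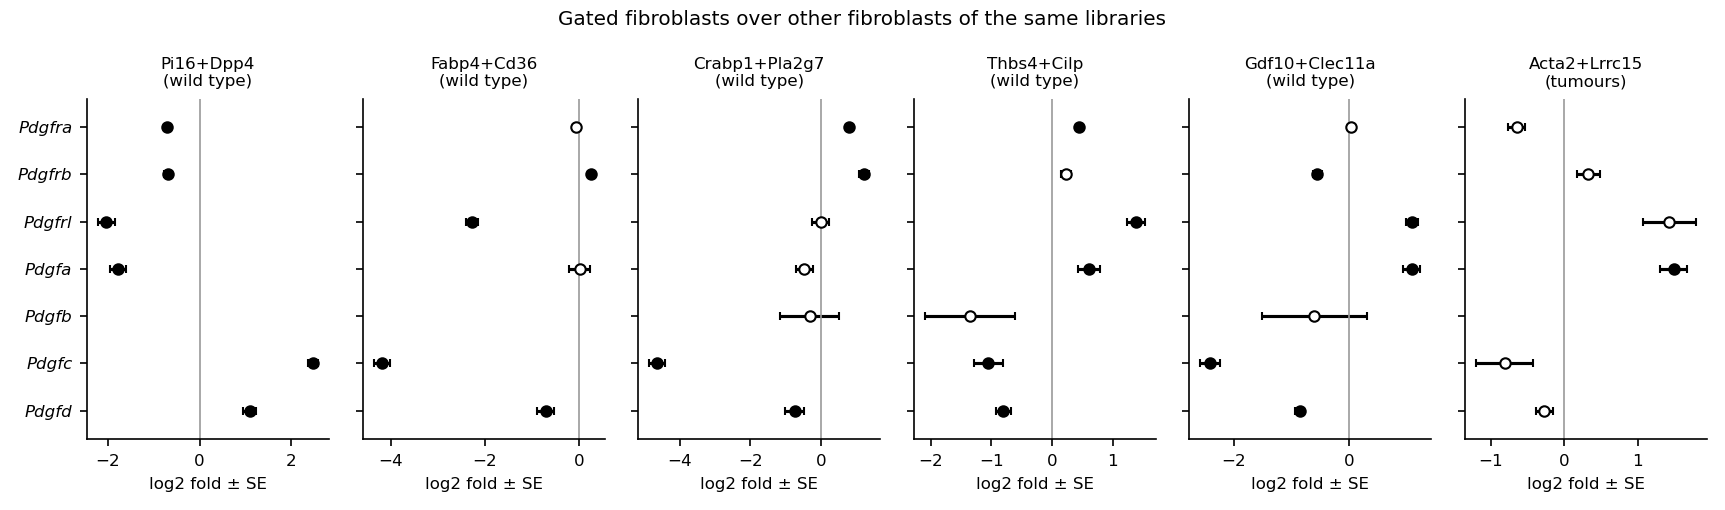
Fitted log2 difference of each member, with its standard error (bars), between gated barcodes and the other fibroblasts of the same libraries; filled points have adjusted p under 0.05, and the panels have their own scales. Pdgfc runs from 2.47 in Pi16 and Dpp4 barcodes to -4.63 in Crabp1 and Pla2g7 barcodes; the last panel holds the 2 tumours, where Pdgfa (1.49) is filled.

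The raGFP-Wnt1 libraries showed the same order of Pdgfc levels between the Pi16 and Dpp4 gate and the Fabp4 and Cd36 gate, described without a test. In Pi16 and Dpp4 barcodes Pdgfc was at 41.0 and 44.5 CPM in hyperplasia and 43.9 and 18.4 CPM in tumours. In Fabp4 and Cd36 barcodes it was at 0.526 and 0.768 CPM in hyperplasia and 1.30 and 1.41 CPM in tumours. Pdgfa in Pi16 and Dpp4 barcodes was at 2.47 CPM in tumour 1 and 15.1 CPM in tumour 2.

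The rest of the PDGF pathway was followed with 55 genes in 4 lists, namely activation and co-receptors (8), adaptors and effectors (30), negative regulators (11) and related class III receptors with their ligands (6). Under MPA+E 1 of 53 tested genes was called, against 4.33% of all genes. This was Kit, the receptor for stem cell factor, at 0.0576 and 0.125 CPM under placebo (4 and 9 UMIs) and 0.839 and 1.48 CPM under MPA+E (73 and 135 UMIs). Its log2 fold was 3.66 ± 0.56 (adjusted p = 0.0357), and the median over all lists was -0.02 against 0.01 over all genes. The untreated adult library of 9 weeks held 0.948 CPM of Kit (70 UMIs), between the 2 MPA+E libraries. Puberty held 0.616 CPM, and pregnancy, lactation and involution 0.316, 0 and 0.0808 CPM. The call was lost without placebo 1 (adjusted p = 0.190) and without placebo 2 (adjusted p = 0.129).

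In hyperplasia 13 of 54 list genes were higher than in normal gland and 3 lower, against 14.0% of all genes called in either direction, with a median log2 difference of 0.25 against -0.01 over all genes. Of the 11 negative regulators, which damp signalling below receptor tyrosine kinases, 4 were higher, 1 was lower and 6 were not called. Spry4 was at 53.7 and 54.8 CPM in hyperplasia and 7.37 and 10.6 CPM in normal gland (log2 fold 2.55 ± 0.23, adjusted p = 0.00671). Spry1 (1.94 ± 0.17) and Dusp6 (1.77 ± 0.32, adjusted p = 0.0266) were called as well, from 27.9 and 30.2 CPM in normal gland to 116 and 113 CPM in hyperplasia for Spry1 and from 10.3 and 11.4 CPM to 31.2 and 46.1 CPM for Dusp6. Plau, the urokinase that can cut PDGF-D, was at 89.6 and 84.4 CPM in hyperplasia and 19.8 and 23.9 CPM in normal gland (log2 fold 1.96 ± 0.16, adjusted p = 0.00592). Spry4 was at 26.5 and 19.5 CPM and Plau at 68.2 and 55.4 CPM in the placebo libraries, between normal gland and hyperplasia, as was Spry1 at 80.7 and 53.5 CPM. Dusp6 was at 33.4 and 27.3 CPM in the placebo libraries, which overlaps hyperplasia. With adult and placebo as normal gland Spry4 was at 1.60 (adjusted p = 0.0527), Spry1 at 1.15 (adjusted p = 0.144), Plau at 0.94 (adjusted p = 0.256) and Dusp6 at 0.78 (adjusted p = 0.396), and without puberty or without either hyperplasia library no named gene of this comparison was called. Pik3cb, a catalytic subunit of phosphoinositide 3-kinase, was called at 1.48 ± 0.37 with at most 65 UMIs in each of these 4 libraries, and Kit at -4.65 ± 0.96 with 0 and 7 UMIs in hyperplasia and 30 and 70 in normal gland. The placebo libraries lay near hyperplasia for both, with Pik3cb at 0.749 and 0.832 CPM against 0.938 and 0.897 CPM and with 4 and 9 UMIs of Kit. With adult and placebo as normal gland Pik3cb was at 0.61 (adjusted p = 0.480) and Kit was too low to be tested.

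In tumours 7 of 54 list genes were higher than in hyperplasia and 8 lower, against 29.3% of all genes called, with a median of 0.00 against -0.01 over all genes. Spry4 (15.5 and 22.3 CPM, log2 fold -1.54 ± 0.21, adjusted p = 0.00801) and Plau (31.8 and 27.9 CPM, -1.54 ± 0.16, adjusted p = 0.00432) were lower than in hyperplasia. Pik3r1, a regulatory subunit of phosphoinositide 3-kinase, fell from 167 and 147 CPM to 67.9 and 54.9 CPM (-1.36 ± 0.18), and Flt3l, the ligand of Flt3, from 12.7 and 11.8 CPM to 6.47 and 3.49 CPM (-1.35 ± 0.29). Sparc, a matrix protein that binds PDGF, was at 3012 and 2829 CPM in hyperplasia and 8937 and 11798 CPM in tumours (1.82 ± 0.46, adjusted p = 0.0306). The wild-type libraries held 5353 CPM (adult) to 14574.5 CPM (puberty) of Sparc, so both tumours lay within their range and both hyperplasia libraries below it. Without hyperplasia 1 none of the named genes of this comparison was called, without hyperplasia 2 Plau alone was, and without tumour 2 Sparc was not (adjusted p = 0.0573). Csf1r, the macrophage receptor for Csf1, was called at 2.74 ± 0.46 from 0.814 and 0.387 CPM to 3.32 and 4.12 CPM, while summed immune markers in these fibroblasts were 4.09 and 3.58 CPM in hyperplasia and 4.39 and 5.54 CPM in tumours; their part in that difference was not tested.

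In Rgs5 barcodes 9 of 54 list genes were higher than in fibroblasts and 23 lower, against 46.0% of all genes called, 2824 higher and 4453 lower (3505 and 3567 with DESeq2 size factors), with a median of -0.20 against -0.13 over all genes. Spry4 was at 99.2 to 276 CPM in Rgs5 barcodes of the wild-type libraries and 7.37 to 39.1 CPM in their fibroblasts (log2 fold 2.77 ± 0.15, adjusted p = 4.21e-11). Nck2, an adaptor that binds activated receptors, was higher by 1.69 ± 0.18, and Kit by 4.01 ± 0.58 on 0 to 11 UMIs per library. Of the activation genes Plat (-1.80 ± 0.19) and Plau (-1.73 ± 0.16), the plasminogen activators, were lower, and so was Csf1 (-1.85 ± 0.13), the ligand of Csf1r. In the gates the lists counted 23 higher and 19 lower for Pi16 and Dpp4 (61.1% of all genes called), 12 and 16 for Fabp4 and Cd36 (37.5%), 14 and 11 for Crabp1 and Pla2g7 (44.4%), 9 and 6 for Thbs4 and Cilp (21.0%), and 7 and 21 for Gdf10 and Clec11a (39.0%), of 53 or 54 tested in each. In the Acta2 and Lrrc15 gate of the tumours they counted 1 and 2 of 52 (3.81%). No list gene was called for MPA+E in Rgs5 barcodes.

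Genes with the profiles most like each member over the 13 libraries were found among 7866 genes with a mean of at least 10 CPM, by the root mean square difference of centred log2(CPM + 1) values. For Pdgfra they were Egfr (0.30), Lamc1 (0.31) and Ism1 (0.32), where the SD of Pdgfra itself was 0.71. For Pdgfrl they were Clec11a (0.31), Cox6b2 (0.43) and Cks2 (0.49), against an SD of 0.99, and Clec11a is one of the genes of a gate above in which Pdgfrl was higher. Profiles near Pdgfrb were those of Trim41 (0.13), App (0.13) and Snx30 (0.13), against an SD of 0.26. For Pdgfc (Fez1, Dhx33 and Slc35e3, 0.21 to 0.22 against 0.34) and Pdgfd (Tpp1, Pi4ka and Wbp1l, 0.15 to 0.16 against 0.25) the distance was a larger part of the member's own spread. Depth differed between the libraries and which of them shared a sequencing run is not given, so likeness here is a description.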

How the data were processed

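Members and gene lists were chosen with earlier results of these data known. The deposited values are raw UMI counts per gene and barcode, which the authors made with Cell Ranger 6.1.2 and filtered to cell barcodes, with mm10 as genome, per the submitters' processing notes. The methods state 4 libraries per sequencing run, and which ones is not given in the sources used here. No doublet caller was run, and barcodes with a marker of another cell type were left out instead. Replicates are libraries. UMIs were summed per library and class, and CPM are these sums per 1000000 UMIs. Positions are from GENCODE M21 (GRCm38), which held 32235 (99.8%) of the 32285 gene identifiers, and promoter windows came from a table made from RefSeq (GRCm38.p6), in which 4 of the 7 members were matched.

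Hormone, Rgs5 and wild-type gate comparisons used edgeR 4.0.16 (quasi-likelihood test, TMM, filterByExpr), and the raGFP-Wnt1 comparisons limma-voom (limma 3.58.1) over 6 libraries, or over the 2 tumours for the Acta2 and Lrrc15 gate, with Benjamini-Hochberg adjustment over all genes tested. Fits of the wild-type gates, of Rgs5 barcodes against fibroblasts and of the difference of effects had the library as a covariate. The main fits of MPA+E against placebo, of hyperplasia against normal gland and of tumour against hyperplasia had no covariate. Each hormone replicate pooled 2 females per the study's methods, so its p-values measure the spread between pools. The study paired hyperplasia and tumour within a mouse, and libraries with the same number and age were taken as pairs. The main fit left this pairing out, and the mouse entered as a block in an alternative fit alone. The paired deviations from the group means correlated at 0.0863 over 16001 genes. The scripts were tested on simulated data. DESeq2 1.42.0, other size factors, filters, limits, gates, blocks and leaving out each library were alternatives. Exact Poisson and Clopper-Pearson 95% intervals and the floor of 3 UMIs cover counting error only. For edgeR fits the SE given is the absolute log2 fold divided by the square root of the F statistic. For limma fits it is the standard error from the fit.

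The 7 members entered each comparison, and those without a fitted value for a main fit above were not called or were too low to be tested. Named as well were up to 6 called list genes with the largest log2 fold in the hormone, hyperplasia, tumour and Rgs5 comparisons, and 3 nearest profiles for each member with a mean of at least 10 CPM.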

Additional observations from a re-analysis of the deposited data

Results flagged for a closer look

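The effects of MPA+E in Rgs5 barcodes and in fibroblasts differed by the test of the difference itself (edgeR interaction term) for 3 of the 53 pathway list genes tested, named after their values were seen, and for no member, against 1.28% of 15202 genes. For Plat, a plasminogen activator, the effect in Rgs5 barcodes exceeded that in fibroblasts by 1.19 ± 0.28 on the log2 scale (adjusted p = 0.0168), with 39.8 and 85.8 CPM under placebo and 109 and 91.9 CPM under MPA+E in Rgs5 barcodes, and 430 and 382 CPM against 255 and 297 CPM in fibroblasts. For Spry2, a negative regulator of receptor tyrosine kinase signalling, the difference was 0.87 ± 0.21 (adjusted p = 0.0236). Its groups overlapped, with 99.0 and 137 CPM under placebo and 130 and 183 CPM under MPA+E in Rgs5 barcodes, and 118 and 162 CPM against 78.3 and 120 CPM in fibroblasts. For Spry4 it was -0.87 ± 0.20 (adjusted p = 0.0116), with 214 and 196 CPM under placebo and 162 and 133 CPM under MPA+E in Rgs5 barcodes, and 26.5 and 19.5 CPM against 30.3 and 26.9 CPM in fibroblasts. Summed fibroblast markers in the Rgs5 barcodes also differed between the groups, 4402 and 8733 CPM against 14249 and 9695 CPM, and so did smooth muscle markers, 13701 and 11773 CPM against 8584 and 8042 CPM. The part of either was not tested. The Plat call was lost without placebo 1 (0.69, adjusted p = 0.567), without MPA+E 1 or MPA+E 2 (adjusted p = 0.106 and 0.234) and in strict barcodes (0.93, adjusted p = 0.142). The Spry2 call was lost without any one of the 4 libraries (adjusted p from 0.0762 to 0.264), and the Spry4 call without any one but placebo 1 (adjusted p from 0.146 to 0.264).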

How the results depend on the processing

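With 1 exception, Pdgfc in Thbs4 and Cilp barcodes, no alternative turned the sign of a called member, and where a value below changed the cause was not tested. For MPA+E in fibroblasts 678 genes were called, 1358 with DESeq2, 2451 with the replicate block and 22 (without placebo 1), 42 (without placebo 2) or up to 900 with a library left out. Pdgfra passed with DESeq2 (0.53) and with the block (0.54, adjusted p = 0.00835), and Pdgfa ranged from -0.49 to 0.078. The number pairs no hormone libraries by the labels, and deviations of libraries with the same number correlated at 0.382 over 15642 genes. In hyperplasia 2280 genes were called, 3471 with the mouse as replicate block, 465 with adult and placebo as normal (added after the data were seen, Pdgfra -0.48) and 1 to 4810 (without tumour 1) with a library left out, with Pdgfra from -0.11 to 0.27 and Pdgfrl from -0.57 to 1.37. In tumours 4777 were called, 242 (without hyperplasia 1) to 7120 (without tumour 1) with a library left out. There Pdgfra was at -0.78 with edgeR, -0.79 with no filter on low counts and -0.83 with at least 100 fibroblast-gene UMIs per 10000, none of them called (adjusted p = 0.0558, 0.0528 and 0.0539), and -1.11 to -0.50 with a library left out. In the same leave-outs Pdgfa ranged from 2.17 to 3.39, Pdgfrl from 1.28 to 1.73 (called without puberty or the adult, adjusted p = 0.0230 and 0.0228), Pdgfrb from -0.17 to 0.0045, Pdgfc from -0.88 (called without tumour 1, adjusted p = 0.0286) to 0.066 and Pdgfd from -0.23 to 0.47. With the mouse as block 6089 genes were called in tumours, and no call of a member changed.

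For Rgs5 barcodes against fibroblasts 7277 genes were called and 4019 in the stage libraries alone, and Pdgfc was at -1.08 in strict barcodes and -1.06 with at least 5 Rgs5 UMIs. For MPA+E in Rgs5 barcodes 27 were called (737 at an unadjusted p under 0.05), 15 with DESeq2 size factors, 0 with no filter, 71 in strict barcodes, 104 with the replicate block, which called Pdgfra (1.32, adjusted p = 0.0312), and 0 (without placebo 1) to 218 (without placebo 2) with a library left out. Pdgfb there was at -0.0071 with no filter and -0.0031 with the block, and with a library left out Pdgfb ranged from -0.36 to 0.35, Pdgfrb from -0.073 to 0.48 and Pdgfrl from -0.20 to 0.59. For the difference of effects 194 were called, 366 in strict barcodes and 56 (without MPA+E 2) to 316 (without placebo 2) with a library left out, where Pdgfrb ranged from -0.20 to 0.27, Pdgfrl from -0.13 to 0.98, Pdgfa from -0.74 to 0.072 and Pdgfc from -0.56 to 0.043. In the Acta2 and Lrrc15 gate 566 were called, 252 with a gate of 5 UMIs and 61 with no filter. Pdgfrl in Crabp1 and Pla2g7 barcodes was at 0.13 with a gate of 5 UMIs and 0.033 with DESeq2 size factors, and Pdgfrb in Thbs4 and Cilp barcodes was called under both (adjusted p = 0.0393 and 0.0279). With Pi16 and Dpp4 barcodes left out of the reference, added after the data were seen, 1860 genes were called for Thbs4 and Cilp (3312 with them), Pdgfc there was at 0.43 and Pdgfrb at -0.0083, Pdgfa in Fabp4 and Cd36 barcodes was at -0.47, and Pdgfra in Gdf10 and Clec11a barcodes was at -0.22 and called (adjusted p = 0.00304). The Pdgfra ratio of lactation to puberty was 2.39 with TMM scaling. Thinned median shares were 40.7% for Pdgfra, 24.3% for Pdgfrb, 6.52% for Pdgfrl, 0.821% for Pdgfa, 0.0181% for Pdgfb, 2.45% for Pdgfc and 5.0% for Pdgfd. Depth limits Pdgfb in fibroblasts and all members in the small classes.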
